A study of Mus musculus with 6 samples.

Results

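The keratin family was followed in cultures of MC3T3-E1, a line of pre-osteoblasts from mouse calvaria, on 6 single-colour NimbleGen arrays. The members were all named genes whose symbol is Krt followed by a number, with keratin-associated proteins left out, and 45 such genes were measured among 17298 named genes. Members were chosen by symbol, not by value, and each had 1 array feature, but the family as a whole was selected on its levels and its difference between the same groups, so the calls below describe these arrays and carry no independent support. Of the 54 keratin symbols in the RefSeq gene table, Krt24, Krt28, Krt32, Krt33b, Krt36, Krt74, Krt80, Krt81 and Krt83 were not matched to a feature. The undifferentiated group held 3 arrays of cells grown in alpha MEM. The other 3 arrays came from cells differentiated for 15 days with 50 µg/mL ascorbic acid and 10 mM glycerol-2-phosphate. Serum was 10% in both groups. Both groups had received 100 nM 1,25-dihydroxyvitamin D3, the hormonal form of vitamin D, for 24 h. The comparison is therefore between hormone-treated cells and cannot show a response to the hormone. The labels give biological triplicates of 1 cell line at passages 5 to 12.

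Keratins are the intermediate filament proteins of epithelial cells. A filament is built from pairs of an acidic type I and a basic type II chain, and particular pairs mark particular epithelia: Krt8 with Krt18 in simple epithelia, Krt5 with Krt14 in the basal layer of stratified epithelia and Krt1 with Krt10 in the layers above it. Other members serve the hair follicle and the hair shaft. In the mouse the type I genes lie together on chromosome 11, and the type II genes, with Krt18, on chromosome 15. Osteoblasts are mesenchymal cells, whose main cytoplasmic intermediate filament protein is vimentin.

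Values are log2 of the deposited expression intensity, and a difference is differentiated minus undifferentiated. Each array carried 42586 features, a median value of 793 to 835 on the linear scale and a control feature of 6131 random probes at 6.59 to 6.81 on the log2 scale. Pearson's r across features was 0.979 to 0.994 among the undifferentiated arrays, where replicate 3 was the one apart, and 0.992 to 0.996 among the differentiated arrays. The array number of undifferentiated replicate 3 began like those of the differentiated arrays. It is therefore shown apart throughout. Each group was imaged on a date of its own, so image date and differentiation cannot be told apart. In the limma fit over all named genes, at a Benjamini-Hochberg adjusted p under 0.05, 3367 genes were called. Of these 44.1% were higher in differentiated cells, against 34.1% with equal array medians and 25.9% with values taken relative to the control feature, which moved the median difference of all genes from 0.08 to -0.03. The RNA came from whole cultures, where fewer cells of a type and less RNA per cell cannot be told apart.

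Of the 45 keratins, 8 were called higher in differentiated cells, none was called lower and 37 did not pass (adjusted p under 0.05, limma). The background was 8.58% of all named genes called higher and 10.9% called lower, against 17.8% and none of the keratins. At an unadjusted p under 0.05, 23 keratins were higher and none lower. The share of all named genes at that threshold was not counted, so nothing is read from this number. The median difference of the family was 0.37 against 0.08 over all named genes, and 0.25 against -0.03 relative to the control feature. Krt23, Krt20 and Krt12 rose by at least 2-fold, while the other 5 called members, Krt84, Krt7, Krt14, Krt75 and Krt17, rose by 1.42-fold to 1.73-fold. The 37 members that did not pass had differences between -0.24 and 0.55, of which 34 were positive. In the whole family 42 differences were positive, where 59.4% of all named genes had a positive difference. Krt8, Krt10 and Krt222 had the negative values.

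The 3 keratins with the largest rises are neighbours in the genome. In the RefSeq gene order of chromosome 11, Krt12, Krt20 and Krt23 follow each other with no other protein-coding gene between them, flanked by Krt10 on one side and by Krt39 on the other. The 3 were picked by the size of their differences on these same arrays, and the flanking genes by position only. The 250 bases before the annotated start of each of these 5 genes are shown. They are from RefSeq (GRCm38.p6), read 5′ to 3′ on the strand of the gene, with the letters TATAAA, the core of the TATA box, in capitals where they occur on that strand.
Krt10 (chr11:99389365-99389614, minus strand): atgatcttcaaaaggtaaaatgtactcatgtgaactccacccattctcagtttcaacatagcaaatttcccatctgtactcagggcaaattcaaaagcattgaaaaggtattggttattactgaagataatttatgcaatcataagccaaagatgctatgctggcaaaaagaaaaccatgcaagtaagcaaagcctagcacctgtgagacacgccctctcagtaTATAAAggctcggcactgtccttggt
Krt12 (chr11:99422260-99422509, minus strand): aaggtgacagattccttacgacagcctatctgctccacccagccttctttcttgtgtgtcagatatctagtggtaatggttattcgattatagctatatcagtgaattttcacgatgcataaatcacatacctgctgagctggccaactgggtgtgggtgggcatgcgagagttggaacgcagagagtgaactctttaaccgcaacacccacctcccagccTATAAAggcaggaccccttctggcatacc
Krt20 (chr11:99438154-99438403, minus strand): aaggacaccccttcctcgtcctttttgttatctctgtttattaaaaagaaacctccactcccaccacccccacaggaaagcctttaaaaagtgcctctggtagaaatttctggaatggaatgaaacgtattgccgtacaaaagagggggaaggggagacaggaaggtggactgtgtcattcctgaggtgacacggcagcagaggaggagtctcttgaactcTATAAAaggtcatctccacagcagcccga
Krt23 (chr11:99493121-99493370, minus strand): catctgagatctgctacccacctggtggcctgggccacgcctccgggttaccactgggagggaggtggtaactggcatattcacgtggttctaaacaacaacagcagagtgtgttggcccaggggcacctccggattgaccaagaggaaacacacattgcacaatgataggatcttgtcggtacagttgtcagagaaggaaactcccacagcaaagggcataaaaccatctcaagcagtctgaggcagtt
Krt39 (chr11:99521339-99521588, minus strand): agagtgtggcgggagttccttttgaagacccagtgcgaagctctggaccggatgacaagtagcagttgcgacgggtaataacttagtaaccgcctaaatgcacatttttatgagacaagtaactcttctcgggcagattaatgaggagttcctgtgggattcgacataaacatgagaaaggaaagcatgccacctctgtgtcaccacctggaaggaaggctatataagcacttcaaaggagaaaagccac

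Krt12 and Krt20 both hold TATAAA with its first base 29 bases before the start, and Krt10, whose value did not rise, holds it at 26 bases. No TATAAA was found in the windows of Krt23 and Krt39. Only these exact letters were searched, and near variants such as tatataa in Krt39 and cataaaa in Krt23 were not counted. The search therefore does not show that a TATA box is missing there. Promoters of 31 of the 45 keratins were in the table, and 14 of these 31 held TATAAA on either strand, against 13.0% of 27025 genes. The letters AGGTCA, the repeat unit bound by many nuclear receptors, were found on either strand in 6 of the 31 keratin windows and in 13.8% of all windows. Of the 5 windows printed only that of Krt20 held them, directly after its TATAAA with no overlap. Of the other motifs searched on both strands, CCAAT occurred in 9 of the 31 windows (34.5% of all), GGGCGG in 2 (32.9%), TTCNNNGAA in 3 (7.18%), CAGCTG in 3 (12.8%), TGANTCA in 1 (6.87%) and AACCACA in 1 (4.45%). In the 5 windows printed, none of these 6 was found apart from a CCAAT on the opposite strand of Krt10.

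Krt23 is a type I keratin of simple epithelia. Its values were 8.55, 8.84 and 8.70 on undifferentiated replicates 1 to 3 and 11.11, 11.07 and 11.07 on differentiated replicates 1 to 3. The groups were far apart and undifferentiated replicate 3 lay between replicates 1 and 2. The rise was 5.23-fold (95% interval 4.30 to 6.37, adjusted p = 1.19e-06). Of 1496 other genes whose mean level lay within 0.25 of Krt23, 8 had a larger difference.

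Krt20, the type I keratin of intestinal and urothelial surface cells and of Merkel cells, read 8.68, 8.25 and 9.12 on the undifferentiated arrays and 10.09, 10.10 and 10.03 on the differentiated ones. All differentiated values lay above all undifferentiated ones, and undifferentiated replicate 3 was the closest to them. The rise was 2.62-fold (95% interval 1.95 to 3.52, adjusted p = 0.000879), and 11 of 1526 genes of like level had a larger difference. Krt12, the type I keratin of the corneal epithelium, read 8.27, 8.55 and 8.42 on the undifferentiated arrays and 9.49, 9.51 and 9.44 on the differentiated ones. Here undifferentiated replicate 3 lay within its own group. The rise was 2.09-fold (95% interval 1.72 to 2.55, adjusted p = 0.000342), and 14 of 1503 genes of like level had a larger difference. Krt23, Krt20 and Krt12 passed in all 19 alternative settings run, among them a rerun on identical values, which could only repeat the result. When the start of the array number entered the fit, which leaves undifferentiated replicate 3 alone against the differentiated arrays, their differences were 2.39, 0.96 and 1.06, compared with 2.39, 1.39 and 1.07 over all arrays.

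The flanking genes did not pass. Krt10, the type I partner of Krt1 in the suprabasal epidermis, read 9.71, 9.89 and 9.40 on the undifferentiated arrays and 9.51, 9.55 and 9.46 on the differentiated ones. The groups overlapped, and the difference was -0.16 (adjusted p = 0.453). Krt39, a hair keratin, differed by 0.26 (adjusted p = 0.153) and the next member, Krt40, by 0.44 (adjusted p = 0.157). The plot of differences in gene order shows the 3 neighbours on chromosome 11, and no keratin of chromosome 15 reached a difference of 1. The difference between these members and their neighbours was not itself tested.

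**Figure D1:**
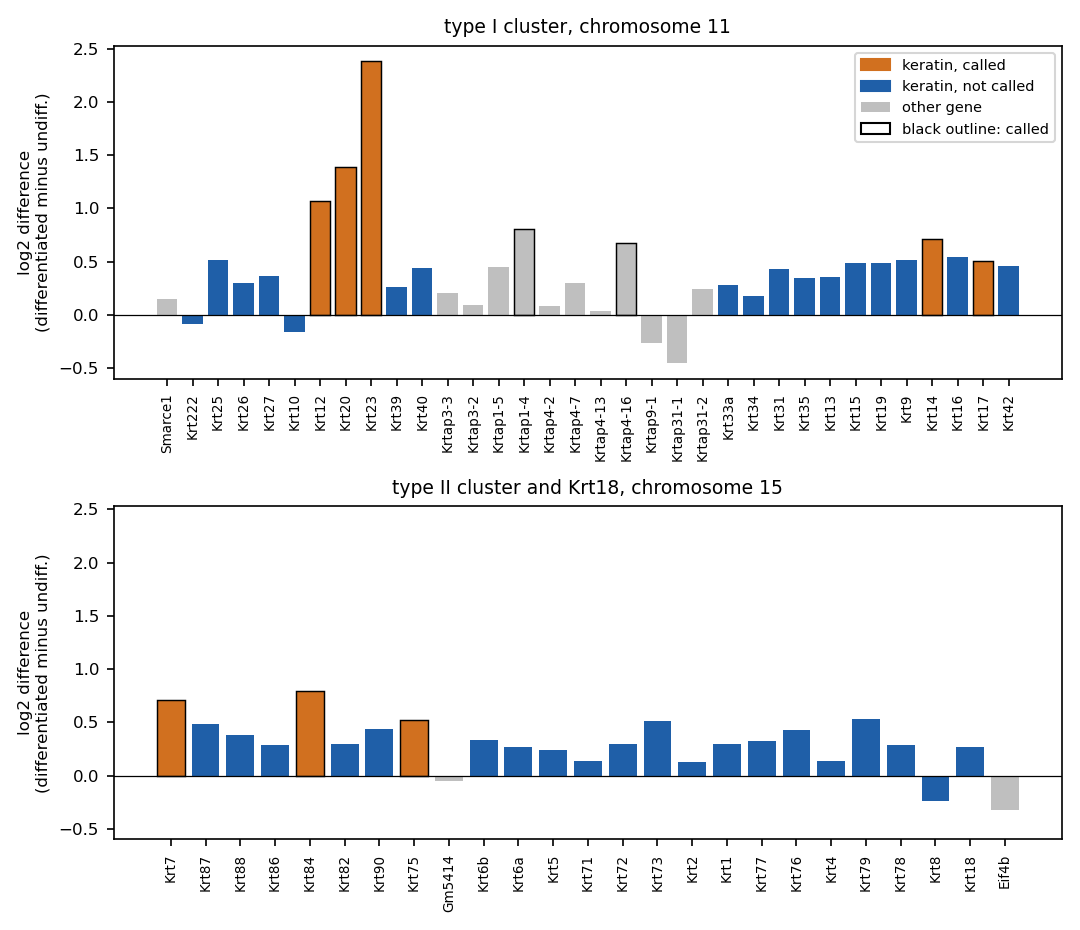
Log2 difference (differentiated minus undifferentiated, 3 arrays each) of the measured genes of the keratin clusters, in RefSeq gene order, with called genes outlined in black. Krt12, Krt20 and Krt23 stand side by side at 1.07, 1.39 and 2.39, and no other bar reaches 1.

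Among the keratins of basal and simple epithelia, Krt14 and Krt7 were called besides Krt23 and Krt20. Krt14, the type I keratin of basal keratinocytes, read 9.47, 9.84 and 10.02 on the undifferentiated arrays and 10.54, 10.53 and 10.39 on the differentiated ones. The groups did not overlap, undifferentiated replicate 3 was the nearest to the differentiated arrays, and the rise was 1.64-fold (95% interval 1.29 to 2.08, adjusted p = 0.0112). The call was lost without differentiated replicate 1 (difference 0.68, adjusted p = 0.0635) and against undifferentiated replicate 3 alone (0.47, adjusted p = 0.0799). Its type II partner Krt5 read 8.64, 8.60 and 9.12 against 9.24, 8.83 and 9.01. These groups overlapped through undifferentiated replicate 3, and the difference was 0.24 (adjusted p = 0.34). Without that replicate it was 0.40 (adjusted p = 0.0279), in a fit where 24.8% of all named genes were called higher. Whether Krt14 and Krt5 differ in their change was not tested.

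Krt8, the type II keratin of simple epithelia, read 7.81, 8.30 and 8.01 on the undifferentiated arrays and 7.84, 7.81 and 7.75 on the differentiated ones. The groups overlapped, and the difference of -0.24 did not pass (adjusted p = 0.257). Its partner Krt18 read 9.28, 9.55 and 9.59 against 9.63, 9.88 and 9.70. All differentiated values lay above the undifferentiated ones, the lowest by less than the spread within either group, and the difference of 0.26 did not pass (adjusted p = 0.189, with a 95% interval of 0.97-fold to 1.49-fold). Krt18 passed in none of the 19 alternative settings and Krt8 in 1, array weights, as lower (-0.41, adjusted p = 0.00849). With array weights 20.8% of all named genes were called lower.

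Krt7, a type II keratin of ducts and other simple epithelia, read 9.74, 10.13 and 10.56 on the undifferentiated arrays and 10.98, 10.66 and 10.93 on the differentiated ones. Undifferentiated replicate 3 lay just below the lowest differentiated array. The rise was 1.64-fold (95% interval 1.21 to 2.22, adjusted p = 0.0301). The call was lost without undifferentiated replicate 1 (difference 0.51, adjusted p = 0.0784), undifferentiated replicate 2 (0.70, 0.106), differentiated replicate 1 (0.65, 0.136) or differentiated replicate 3 (0.68, 0.105), beside 0.71 over all arrays, and against undifferentiated replicate 3 alone (difference 0.29, adjusted p = 0.336). Krt19, a type I keratin of simple epithelia without a tail domain, read 8.85, 8.86 and 9.52 against 9.80, 9.45 and 9.47. Undifferentiated replicate 3 lay among the differentiated arrays, and the difference of 0.49 did not pass (adjusted p = 0.094). Without that replicate it was 0.71 (adjusted p = 0.000753, in a fit where 24.8% of all named genes were called higher), and against it alone 0.049. Of the 6 simple epithelial keratins 3 were called higher, Krt23, Krt20 and Krt7, while Krt8 differed by -0.24. Of the 3 basal layer keratins 1 was called higher, Krt14. Over all named genes 8.58% were called higher, and classes of this size cannot be set apart from that share.

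Of the keratins of hair and wounded skin, 3 rose. Krt84, a type II hair keratin, read 10.17, 10.30 and 10.81 on the undifferentiated arrays and 11.30, 11.12 and 11.25 on the differentiated ones. The groups did not overlap, and the rise was 1.73-fold (95% interval 1.33 to 2.26, adjusted p = 0.0102). It did not pass without undifferentiated replicate 2 (difference 0.73, adjusted p = 0.0596) or differentiated replicate 1 (0.76, 0.0622), beside 0.79 over all arrays, or against undifferentiated replicate 3 alone (difference 0.41, adjusted p = 0.0962). Krt17, a type I keratin induced in wounded epidermis, read 10.21, 10.41 and 10.62 against 11.02, 10.90 and 10.85, a rise of 1.42-fold (95% interval 1.14 to 1.76, adjusted p = 0.0308). The groups were separate, with undifferentiated replicate 3 nearest to the differentiated arrays. Krt17 lost its call when any 1 array other than undifferentiated replicate 3 was left out (difference 0.40 to 0.54 beside 0.51 over all arrays, adjusted p = 0.083 to 0.129), relative to the control feature (0.0655) and against undifferentiated replicate 3 alone (difference 0.30, adjusted p = 0.243).

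Krt75, a type II keratin of the companion layer of the hair follicle, read 9.95, 10.02 and 10.51 against 10.74, 10.52 and 10.78. Undifferentiated replicate 3 was almost level with differentiated replicate 2, and the rise of 1.44-fold lay at the threshold (adjusted p = 0.04996), while Krt9, a keratin of footpad epidermis, lay just beyond it (difference 0.52, adjusted p = 0.05001). Krt75 did not pass in 12 of the 19 alternative settings, among them quantile normalization (adjusted p = 0.0525), equal array medians (0.068), each single-array omission other than that of undifferentiated replicate 3 (difference 0.42 to 0.60 beside 0.52 over all arrays, adjusted p = 0.0755 to 0.179) and the comparison with that replicate alone (difference 0.17, adjusted p = 0.545). Of the 10 measured hair shaft keratins 1 rose, of the 5 wound and companion layer keratins 2, of the 4 mucosal and corneal keratins 1 (Krt12), and of the 6 inner root sheath and 7 suprabasal keratins none. Beside the 8.58% of all named genes called higher, 1 of 10 hair shaft keratins is near the background, and the classes are too small to set apart from it. By type, 5 of 22 type I and 3 of 21 type II keratins rose, with medians of 0.45 and 0.30.

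The brightness of a feature depends on its probes as well as on its transcript, so levels do not order the keratins by transcript amount. On the arrays 43 keratins were above the control feature on all 6 arrays, Krt222 was at or below it on all 6, and Krt34 was on both sides. This separates little, since 91.3% of all named genes also lay above the control on every array. At least 1 log2 unit above it on every array were 38 keratins, against 78.9% of named genes. By mean value the 6 brightest keratin features were Krt40, Krt72, Krt84, Krt17, Krt42 and Krt7. Krt40, a type I hair keratin, read 10.41, 10.66 and 11.28 on the undifferentiated arrays and 10.98, 11.25 and 11.45 on the differentiated ones. Krt72, of the inner root sheath, read 10.67, 10.44 and 10.98 against 11.07, 10.92 and 10.99. Krt42, a type I keratin, read 10.18, 10.28 and 10.72 against 10.98, 10.70 and 10.87. In all 3 the groups overlapped only through undifferentiated replicate 3, and none passed (adjusted p = 0.157, 0.186 and 0.0718). Without that replicate each passed (adjusted p = 0.0016, 0.0128 and 0.00144, with differences of 0.69, 0.44 and 0.62). That fit called 33 of the 45 keratins and 24.8% of all named genes higher, so passing there does not set these 3 apart.

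**Figure D2:**
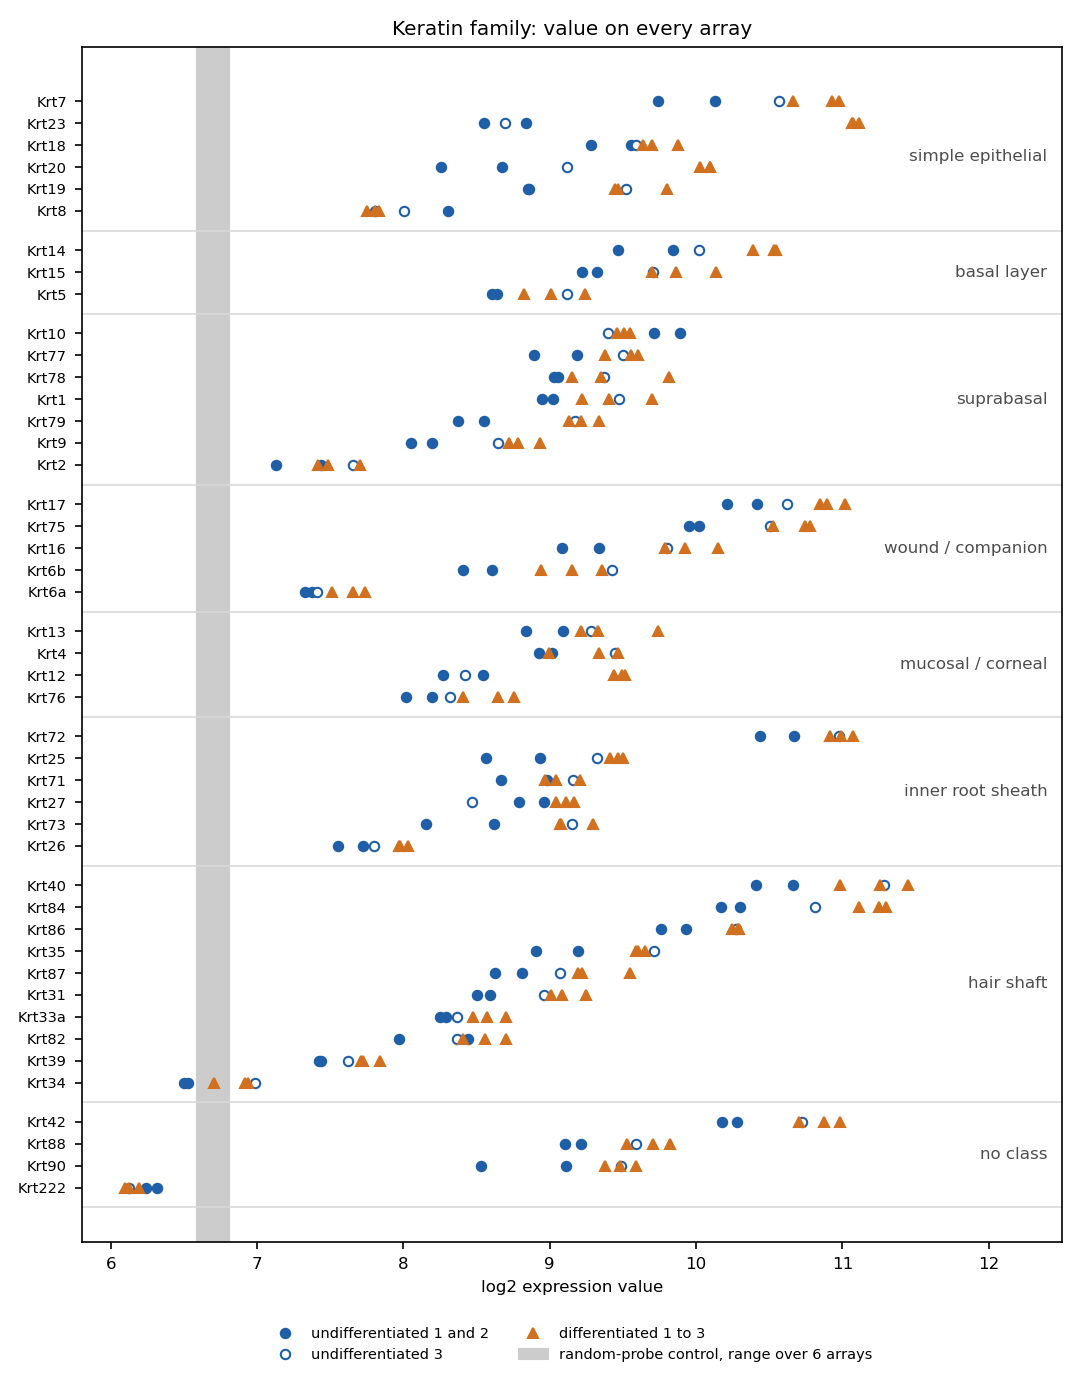
Log2 expression value of each of the 45 keratins on every array, by class, with undifferentiated replicate 3 as an open circle and the range of the random-probe control over the 6 arrays as a grey band. Krt222 lies below the band on every array, Krt34 on both sides of its arrays' controls, and the open circles often lie near the differentiated arrays.

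The count of called keratins depended on undifferentiated replicate 3. It lay above both replicates 1 and 2 for 38 of the 45 keratins, against 44.1% of all named genes, and the 7 exceptions were Krt23, Krt12, Krt10, Krt27, Krt82, Krt8 and Krt222. Its median shift from the mean of replicates 1 and 2 was 0.43 over the keratins and 0.03 over all named genes. The shift was not particular to keratins. Over the marker lists given below it was 0.43 for skeletal muscle, 0.31 for epithelial and 0.30 for keratinocyte markers. For macrophage, osteoblast and endothelial markers it was 0.16, 0.14 and 0.08. The differentiated arrays lay 0.53 above the mean of replicates 1 and 2 and 0.13 above replicate 3, as medians over the keratins. These comparisons share arrays and are given side by side only. For 11 keratins the differentiated mean was below replicate 3, among them Krt6b, a wound-induced type II keratin, which read 8.40, 8.60 and 9.42 on the undifferentiated arrays and 9.36, 9.15 and 8.94 on the differentiated ones. Without replicate 3, 33 keratins were called higher and none lower, against 24.8% of all named genes called higher. With the start of the array number in the fit 4 were called, Krt23, Krt20, Krt12 and Krt27, an inner root sheath keratin, against a background of 8.73%. In that fit undifferentiated replicate 3 is the only undifferentiated array among those of its number start, so its spread is assumed from the other arrays and the calls rest on 1 array. The median of the 45 keratin values was 8.68, 8.93 and 9.32 on undifferentiated replicates 1 to 3 and 9.51, 9.35 and 9.44 on differentiated replicates 1 to 3. The part of replicate 3's array or culture in these values was not tested.

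**Figure D3:**
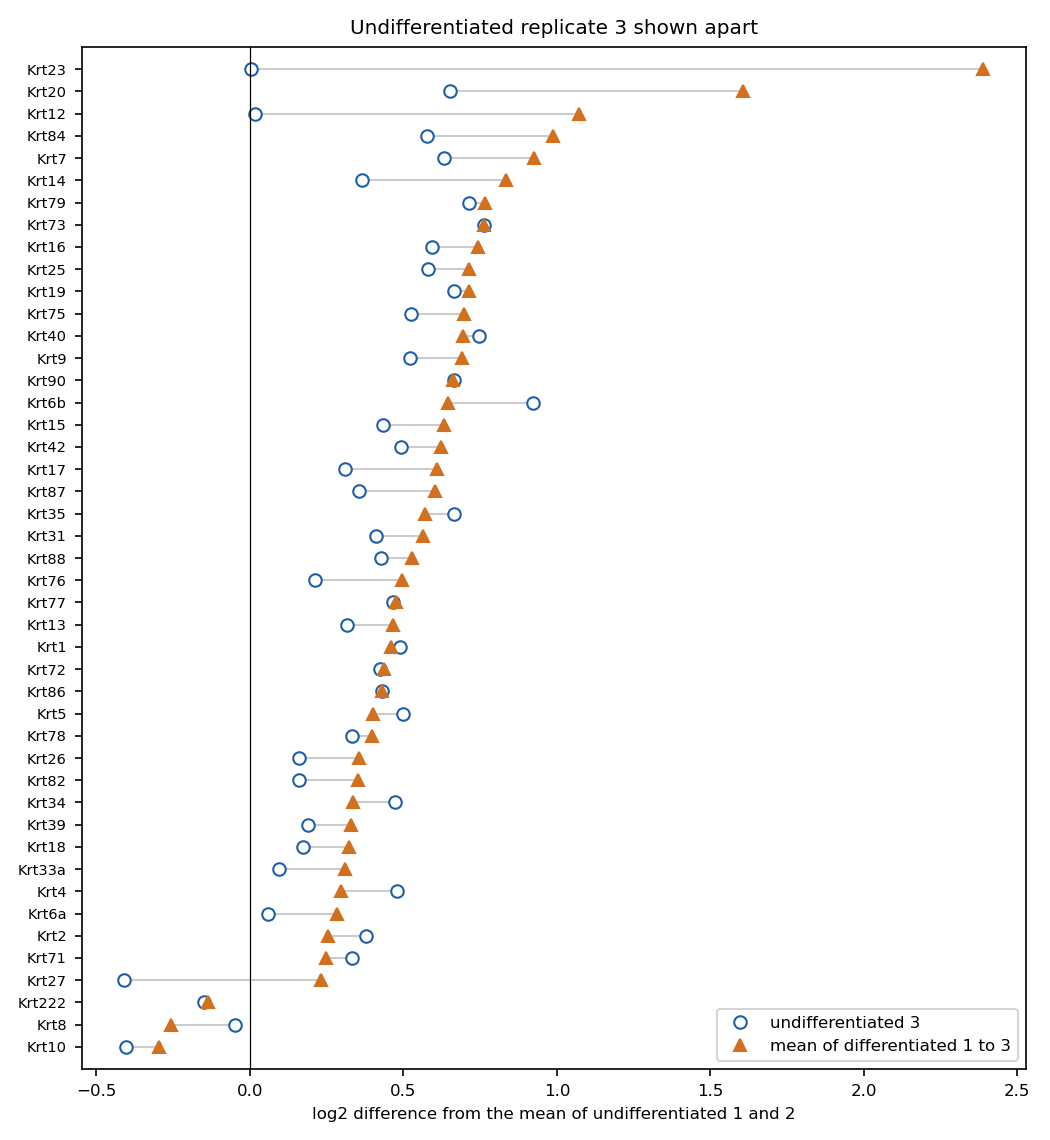
For each keratin, the log2 difference of undifferentiated replicate 3 (open circle) and of the mean of the 3 differentiated arrays (triangle) from the mean of undifferentiated replicates 1 and 2. For Krt23 and Krt12 the circle lies near 0 and the triangle at 2.39 and 1.07, while for most members the circle lies close to the triangle.

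The groups did not overlap for 19 keratins, all with the differentiated arrays higher, which is 42.2% of the family against 22.7% of all named genes in that direction. The SD of a keratin was 0.04 to 0.54 within the undifferentiated group (median 0.27) and 0.03 to 0.34 within the differentiated group (median 0.12), and the undifferentiated SD was the larger for 40 of the 45.

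The keratins were also set beside other genes of like brightness. For each member, the other named genes whose mean over the 6 arrays lay within 0.25 of it were taken, 548 to 1544 genes. The median difference of these genes was itself positive at the level of most keratins, 0.22 as the median over the 45 sets, with a range of -0.08 to 0.23. The share of them called higher had a median of 11.6% and reached 14.3%. In this setting 39 of 45 keratins lay above the median of their genes of like level and 22 above the upper quartile. The 6 members with the highest standing were Krt23, Krt20, Krt12, Krt84, Krt14 and Krt7, with 99.5%, 99.3%, 99.1%, 96.9%, 95.9% and 95.4% of genes of like level below them. Krt18 and Krt5 stood in the middle, at 57.1% and 51.4%, and Krt8 low, at 9.62%. For undifferentiated replicate 3 against replicates 1 and 2, 36 keratins lay above the median of their genes of like level, whose own shift was 0.15. These are descriptions, and no test of the family against other genes was made.

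**Figure D4:**
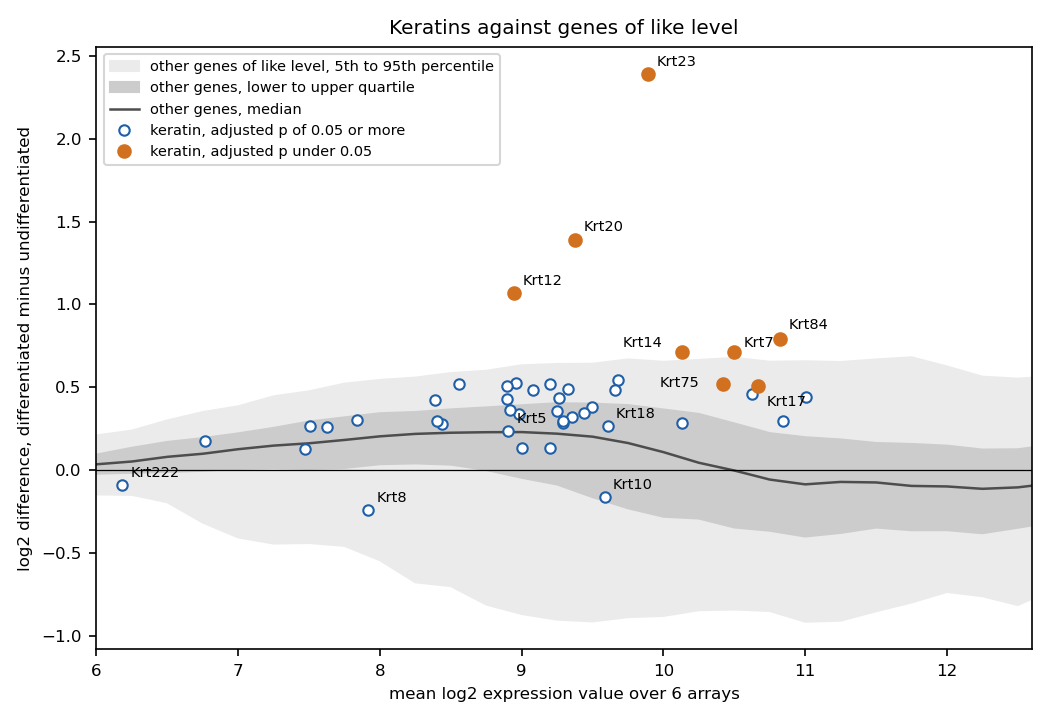
Log2 difference against mean log2 level for the 45 keratins (points), with the median, quartiles and 5th to 95th percentiles of other named genes of like level in grey. Most keratins lie in the upper part of the grey bands, and Krt12, Krt20 and Krt23 lie far above them.

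Genes that work with keratins are given beside the background of 8.58% of all named genes called higher and 10.9% called lower, and nothing particular to these lists is read from their counts. Of 18 measured genes of desmosomes and filament linkage, 2 were higher and 2 lower, near that background in both directions, and 14 were not called, with a median difference of 0.17. Pkp2, a plakophilin that anchors filaments at desmosomes, fell 3.93-fold, from 11.09 ± 0.27 to 9.12 ± 0.04 (SD, n = 3 each, adjusted p = 1.63e-05), while Pkp4 rose 1.77-fold (adjusted p = 0.00576) and Pkp3 1.42-fold (adjusted p = 0.038). Dst, a linker of filaments to the cell base, fell 1.39-fold (adjusted p = 0.0456). Of 16 other intermediate filament genes 3 rose and 1 fell. Vim, the vimentin gene, was bright and differed by -0.048 (adjusted p = 0.816). Nes, the nestin gene, rose 1.79-fold (adjusted p = 0.00366), Sync, of muscle filaments, 1.65-fold (adjusted p = 0.00292) and Nefm, a neurofilament gene, 1.46-fold (adjusted p = 0.0354), and the nuclear lamin gene Lmnb1 fell 1.80-fold (adjusted p = 0.00921). Of 19 regulators and modifiers of keratins 4 rose and 1, Pnn, fell (1.43-fold, adjusted p = 0.0322). Klf5, a transcription factor of epithelia, rose 1.66-fold (adjusted p = 0.00436) and the epithelial factors Grhl3 1.54-fold (adjusted p = 0.0247) and Elf3 1.47-fold (adjusted p = 0.014), while Trp63, which drives the basal keratins in epidermis, differed by 0.38 (adjusted p = 0.16). The fourth called regulator, Ehf, read 6.82, 6.82 and 6.67 on the undifferentiated arrays, close to the control there and below it on replicate 3, so no fold is given for it.

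Epithelial and keratinocyte markers were read beside the keratins. Of 20 epithelial markers 2 were called higher and none lower, with a median difference of 0.21, where 8.58% of all named genes were called higher and 10.9% lower. The 2 of 20 are near that background, which also stands behind the counts of the other marker lists here. The 2 were Cdh1, the E-cadherin gene, which rose 1.73-fold (adjusted p = 0.0261), and Elf3, which is also in the list of regulators. Cdh1 read 8.33, 8.18 and 9.08 on the undifferentiated arrays and 9.30, 9.42 and 9.24 on the differentiated ones, again with undifferentiated replicate 3 nearest to the differentiated arrays. The summed linear value of the 20 markers was 9525 to 12588 in undifferentiated and 12281 to 12630 in differentiated cells, and 17 of them were above replicates 1 and 2 on undifferentiated replicate 3. Epcam, a surface marker of epithelia, differed by 0.08 (adjusted p = 0.636), and Marveld2, of tight junctions, was at or below the control on every array. Of 16 keratinocyte markers other than keratins none was called, with sums of 8913 to 10127 and 10590 to 11540. Their median difference was 0.26, and 14 were positive, where 59.4% of all named genes were. On undifferentiated replicate 3, 13 of these markers lay above replicates 1 and 2 (44.1% of all named genes). Their part in the keratin values was not tested. Of 12 osteoblast markers 6 rose, among them Alpl, alkaline phosphatase, by 13.0-fold (adjusted p = 6.79e-08), and Dmp1, a bone matrix protein gene, by 4.64-fold (adjusted p = 0.000271). The other 6, Runx2, Col1a1, Col1a2, Sparc, Ibsp and Spp1, were not called, and Spp1 had a negative difference (-0.32). Of 9 macrophage markers Fcgr3 rose and Cd14 fell, and the summed value was 3797 to 4451 in undifferentiated and 4440 to 4943 in differentiated cells. Of 10 endothelial markers Tek, Erg, Esam and Pecam1 rose and 6 were not called, with Pecam1 close to the threshold (adjusted p = 0.0493). Tek read 6.86, 7.44 and 6.88 on the undifferentiated arrays, close to the control on replicates 1 and 3. Egfl7 had a negative difference (-0.16), and Cdh5 was at or below the control. The sum of the endothelial markers was 4777 to 5135 in undifferentiated and 5801 to 6411 in differentiated cells. Of 9 skeletal muscle markers Tnnt1 rose 5.09-fold (adjusted p = 3.39e-05), Tnnc2 and Ckm rose less, and the sum was 4304 to 5993 and 7691 to 8651.

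The called keratins differed in how far they held under other processing. The 19 alternative settings include a rerun on identical values from the deposited series table, which could only repeat the calls above. Krt23, Krt20 and Krt12 passed in 19 of 19 alternative settings, Krt14 in 17, Krt84 in 16, Krt7 in 14, Krt17 in 12 and Krt75 in 7. The number called higher was 3 without differentiated replicate 1 (background 2.78%), 4 without undifferentiated replicate 2 (2.94%), 5 without undifferentiated replicate 1 (5.63%) or differentiated replicate 3 (3.28%), and 6 without differentiated replicate 2 (4.12%), and each of these sets lay within the 8. Relative to the control feature 6 were called (background 4.28%), with cyclic loess 7 (7.15%) and with the replicate number as a block 9 (9.03%). Array weights gave 36 higher and 2 lower, against backgrounds of 28.0% and 20.8%.

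**Figure D5:**
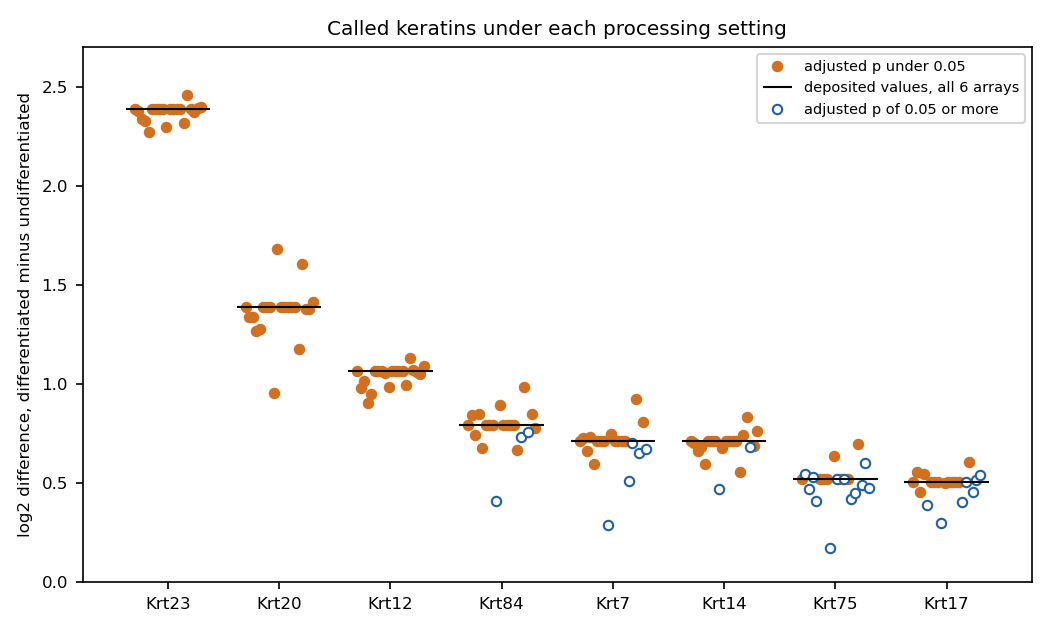
Log2 difference (differentiated minus undifferentiated) of the 8 called keratins with the deposited values of all 6 arrays (line) and in each setting (points, filled where the adjusted p was under 0.05). All points of Krt23, Krt20 and Krt12 are filled, and open points appear for the other 5.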

How the data were processed

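RNA of 6 cultures was hybridized to 1 single-colour (Cy3) array each, and groups were taken from the sample titles. The authors deposited an expression intensity on the linear scale for every feature, and their processing notes name RMA. Its version is not given in the sources used here, and neither are the arrays it took together. A count of probes stands beside each intensity, per the file headers. A deposited table of the series held the same intensity values (largest difference 0).

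Log2 was taken of the authors' values without further normalization. Features were named by RefSeq transcript (GRCm38.p6 table, names and gene order only): 17849 of 42586 matched 1 symbol, and the brightest feature stood for a gene. Differences were fitted with limma 3.58.1 in R 4.3.3 (lmFit, eBayes, 2-sided) over all 17298 named genes with Benjamini-Hochberg adjustment. The fit was run on simulated data with independent noise and no array shifted like undifferentiated replicate 3. That run checked the code only and does not bear on the calls. The members and lists were chosen with earlier results of these data known. Every array value is given for the marker keratins and their partners, the 6 brightest, all called members and the largest differences in each direction among members above the control. The replicate numbers were not taken as pairs in the fit. Deviations from the group means correlated at 0.02, 0.13 and 0.07 between arrays of the same number. Between arrays of different numbers they correlated at -0.11 to 0.04. These values cannot show whether the samples were paired. Precision is limited by 3 arrays per group. Alternatives were normalization, dim-feature filters, blocks, weights, variance priors, feature choice and leaving out each array. A rerun on the identical values of the deposited series table is also counted among them and could only repeat the fit. Proteins were not compared, so shared probes between near-identical keratins such as Krt6a and Krt6b were not assessed.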

Additional observations from a re-analysis of the deposited data

How the results depend on the processing

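Of 19 alternatives, those on scaling, dim features, variance prior and feature choice left 6 to 9 keratins called higher. With the replicate number as a block 9 were called (3452 named genes), and the block changed the call of Krt76 alone, which passed there. With the start of the array number in the fit 4 were called, and with array weights, which gave undifferentiated replicate 3 the lowest weight (0.24, against 0.61 and 2.76 for replicates 1 and 2), 36 were called higher and 2 lower, with 8432 named genes called. The lower calls there were Krt8 and Krt10. Leaving out 1 array gave 3 to 33 keratins higher, 0 lower, and 1354 to 7781 named genes called (1354 without differentiated replicate 1, 1495 without undifferentiated replicate 2, 1646 and 2029 without differentiated replicates 3 and 2, 2381 without undifferentiated replicate 1, 7781 without undifferentiated replicate 3), with a median keratin difference of 0.28 to 0.53. In the array number fit, which by construction sets undifferentiated replicate 3 alone against the differentiated arrays, 34 keratins were positive, against 42 over all arrays. Krt40 (-0.052), Krt5 (-0.096), Krt6b, Krt4, Krt34, Krt2, Krt35, Krt71, Krt1 and Krt90 turned negative and Krt10 (0.11) and Krt222 positive, none of them called there. With windows of 0.1 and 0.5, 38 and 39 keratins lay above the median of their genes of like level. The control feature is the only measure of background used, and members near it, such as Krt34 and Krt222, have little room to fall.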

Other observations

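Keratin-associated proteins, the matrix proteins that embed hair keratin filaments, were measured as 33 genes. Of these 4 were called higher in differentiated cells, none lower and 29 did not pass, with a median difference of 0.10, and 7 were at or below the control on every array. Over all named genes 8.58% were called higher and the median was 0.08, so neither the count nor the median stands far from the background. Krtap1-4 read 8.77, 8.81 and 8.60 on the undifferentiated arrays and 9.60, 9.65 and 9.37 on the differentiated ones, a rise of 1.75-fold (adjusted p = 0.00261, limma). Undifferentiated replicate 3 was the lowest of its group there. Krtap4-16 read 9.64, 9.58 and 10.31 against 10.51, 10.39 and 10.68, a rise of 1.60-fold (adjusted p = 0.0333), with undifferentiated replicate 3 just below the differentiated arrays. Both lie in the type I keratin cluster on chromosome 11, between Krt40 and Krt33a. Krtap19-4 rose 1.49-fold (adjusted p = 0.0392) and Krtap13-1 1.36-fold (adjusted p = 0.0473).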
